A study of Coffea canephora with 12 samples.

Results

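The genes described here are the 8 auxin-conjugating genes of *Coffea canephora* named CcGH3.1a, CcGH3.1b, CcGH3.1c, CcGH3.1d, CcGH3.3, CcGH3.6a, CcGH3.6b and CcGH3.9. They were found in the count files by their gene identifiers, and they are 8 of the 18 CcGH3 genes in the study's gene table and 8 of the 25574 genes counted. Their levels were followed through the induction of somatic embryogenesis, in which embryos form from leaf tissue instead of from a zygote. RNA was sequenced at 6 time points with 2 libraries at each, 12 libraries in all. The 14 dbi group (days before induction), which the labels call the control, was leaves of plantlets kept in vitro on MS medium without growth regulators. The 9 dbi and 0 dbi groups were leaves of plantlets on MS medium with the auxin NAA (spelled ANA in the labels) and the cytokinin kinetin (KIN). The 1 dai, 2 dai and 21 dai groups (days after induction) were leaf explants in Yasuda medium with the cytokinin benzyladenine (BA) and no auxin. At induction the leaves were also cut into discs and moved from light to a shaken liquid culture in the dark, so growth regulator, wounding, medium and light cannot be told apart in a comparison across it. The series describes both libraries of a time point as technical sequencing replicates of a single sample. Some genes differed widely between them (CcGH3.1d had 200 and 0 reads at 9 dbi, and CcGH3.1b 4 and 473 at 0 dbi), and whether they came from separate cultures or extractions is not stated. Outside the comparison of stages, every SD, SE and p-value below therefore measures the spread between these libraries, whatever its source. In the comparison of stages, where both libraries of a time point were summed, SE and p-value measure the spread between the time points of a stage. None of them can be read as variation between plants. In bulk tissue, fewer cells of a type and less RNA per cell cannot be told apart either.

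GH3 enzymes (GRETCHEN HAGEN 3) join indole-3-acetic acid (IAA), the main natural auxin, to an amino acid. Joined IAA does not act as auxin. IAA-Asp and IAA-Glu are generally held to lead to degradation, whereas IAA-Ala and IAA-Leu can be hydrolysed back to free IAA. In Arabidopsis, many GH3 genes are transcribed within minutes of an auxin treatment, so that the enzymes lower the auxin that induced them. The study's gene table lists an Arabidopsis homologue for each gene. The CcGH3.1 copies correspond to AtGH3.1, CcGH3.3 to AtGH3.2 (YDK1), the CcGH3.6 copies to DFL1 and CcGH3.9 to AtGH3.9. In Arabidopsis, plants that overexpress YDK1 or DFL1 have short hypocotyls, and AtGH3.9 is unusual in the group because auxin lowers its transcript and its loss affects root growth. The activity of the coffee enzymes was not measured by these libraries. Free IAA and its conjugates were measured in the study by liquid chromatography on some of the same days (14 dbi, 0 dbi, 1 dai and 21 dai, but not 9 dbi or 2 dai). Those contents are not part of the count files and were not analysed here, so no relation between transcript and conjugate is given.

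The starts of 6 of the coding sequences are shown because they bear on how far the counts of a gene can be trusted. They are the first 90 bases from the start codon in the study's table of CcGH3 sequences, written 5′ to 3′. The start codon was taken as the ATG with the longest reading frame in the 399 bases compared, so it may lie inside a longer coding sequence. The ATG is in capitals except in the first pair, which is wholly in lower case because no base of it differs.
CcGH3.1a: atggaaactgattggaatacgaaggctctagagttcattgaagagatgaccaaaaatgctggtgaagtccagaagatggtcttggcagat
CcGH3.1b: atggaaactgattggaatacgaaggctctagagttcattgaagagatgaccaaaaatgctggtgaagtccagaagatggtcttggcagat
CcGH3.1c: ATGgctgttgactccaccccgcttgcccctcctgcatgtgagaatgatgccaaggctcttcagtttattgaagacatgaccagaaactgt
CcGH3.1d: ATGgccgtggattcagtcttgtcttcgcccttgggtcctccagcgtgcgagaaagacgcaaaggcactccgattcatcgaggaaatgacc
CcGH3.3: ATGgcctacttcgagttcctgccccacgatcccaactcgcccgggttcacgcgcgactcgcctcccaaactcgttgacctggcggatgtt
CcGH3.6b: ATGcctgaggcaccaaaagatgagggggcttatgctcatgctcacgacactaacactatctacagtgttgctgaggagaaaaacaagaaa
CcGH3.1a and CcGH3.1b were identical over all 219 bases that could be compared. In the other 27 pairs of the 8 genes the longest identical run was 13 bases, in sequences of 399 bases each. Reads that lie wholly within the start of CcGH3.1a and CcGH3.1b therefore cannot be assigned to one of them. Reads of low mapping quality were left out of the gene counts, and the rest of both coding sequences was not compared. How far the split between their counts is affected is therefore uncertain.

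In the genome build AUK_PRJEB4211_v1, found by matching identifiers to its annotation, CcGH3.1c (Cc07_g06610) lies on chromosome 7 from 4821777 to 4824526. CcGH3.9 (Cc01_g20620) lies on chromosome 1 from 37172660 to 37175649. Both CcGH3.6 copies are on chromosome 5, with CcGH3.6a (Cc05_g05640) from 20228391 to 20230769 and CcGH3.6b (Cc05_g12940) from 26669662 to 26672091. CcGH3.1a (Cc00_g22520, bases 2648 to 5228) and CcGH3.1b (Cc00_g01360, bases 857679 to 860418) lie on different unplaced scaffolds. CcGH3.1d (Cc02_g19460, 17549063 to 17550429) and CcGH3.3 (Cc02_g19470, 17550591 to 17551452) are neighbours on chromosome 2, separated by 161 bp in which 0 genes are annotated. These coordinates are those of whole gene models, and exons and UTRs were not used here. CcGH3.1d and CcGH3.3 span 1367 and 862 bp, against 2379 to 2990 bp for the other members. Whether these neighbours are separate genes or parts of a single gene split in the annotation was not tested. They are treated as separate genes below.

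Each library held between 10091539 and 36525500 reads in genes, and a count of 0 allowed a level of up to 0.0821 to 0.297 CPM (reads of a gene scaled to a library of 1e+06 reads in genes), taking 3 counts as the limit. Such limits, and the exact intervals given below, cover counting error only. In 4 libraries, the first of 14 dbi, 0 dbi, 2 dai and 21 dai, reads of low mapping quality made up 17.6% to 20.3%, against 11.2% to 12.7% elsewhere, and results with a term for this share, or without those 4 libraries, are given where they bear on a call. The leaf label could not be checked against marker genes, since the identifiers are paired with no gene descriptions.

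Together the 8 genes took 13645 reads in the 12 libraries. CcGH3.6b had the most, 4416 reads, followed by CcGH3.1c with 2953. CcGH3.3 had 1634 reads, CcGH3.1d 1550, CcGH3.1b 1444, CcGH3.9 940 and CcGH3.1a 687. Only CcGH3.6b and CcGH3.1c had reads in every library, and 15 of the 96 values of a gene in a library were 0. In the panels of levels by library, the pairs of these 2 genes lay at most 1.94 log2 units apart (CcGH3.1c at 0 dbi), while each of the other 5 genes with more than a few reads had a pair more than 3 units apart and some close pairs as well (CcGH3.3 by 0.39 at 2 dai).

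**Figure D1:**
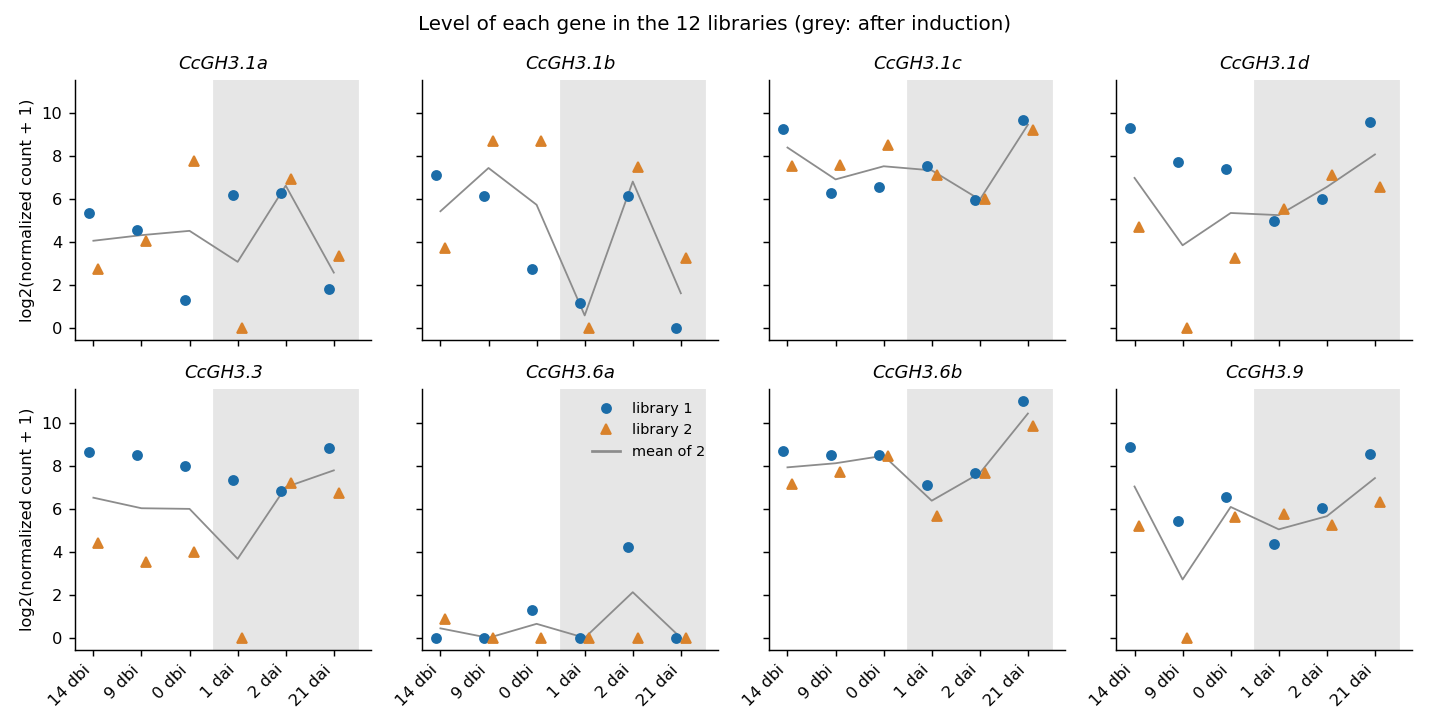
Levels of the 8 genes as log2(normalized count + 1), on the y axis, against time point, on the x axis; circles and triangles are the first and second library, the grey line joins the means of the pair, and time points after induction are shaded. CcGH3.6b is highest in both 21 dai libraries, whereas CcGH3.3 and CcGH3.1d spread over several log2 units within a time point.

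CcGH3.6b, a DFL1 homologue, was the member with the clearest change, a rise at 21 dai. It had 16 and 6.47 CPM in the 2 libraries of 14 dbi, 16.7 and 8.89 at 9 dbi, then 13.4 and 14.2 at 0 dbi. After induction it had 6.20 and 2.18 CPM at 1 dai, 9.29 and 9.64 at 2 dai, then 80.4 and 41.7 at 21 dai. Both 21 dai libraries lay above all other 10, as in 12.2% of all genes tested. Both 1 dai libraries lay below all others, by a narrow margin (6.20 CPM against 6.47 in the second of 14 dbi). The share of all genes with their 1 dai libraries lowest was not computed. On counts normalized by edgeR's TMM method, which scales each library to an effective size, the mean was 276 ± 189 (SD, n = 2 libraries, as in all means below) at 14 dbi, 284 ± 104 at 9 dbi and 351 ± 8.95 at 0 dbi. It was 92.4 ± 61.6 at 1 dai, 200 ± 2.56 at 2 dai and 1480 ± 799 at 21 dai. In the order of these means (1 dai, 2 dai, 14 dbi, 9 dbi, 0 dbi, 21 dai), the values of 2 dai, 9 dbi and 0 dbi all lay within the range of the 14 dbi libraries, and those of 1 dai and 21 dai lay outside it.

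In edgeR's quasi-likelihood test with Benjamini-Hochberg adjustment over all 20745 genes tested, CcGH3.6b was the 1 of 7 members tested whose level changed over the 6 time points (adjusted p = 0.0137). Of all genes tested, 21.9% passed the same test. CcGH3.6a did not pass the filter on low counts and was not tested. Against 14 dbi, CcGH3.6b rose at 21 dai by 2.43 on the log2 scale (SE 0.68, 95% interval 0.91 to 3.94, adjusted p = 0.0412 in edgeR), again as the 1 member of 7 that passed, where 13.7% of all genes did. The other 6 members lay between -3.85 (CcGH3.1b) and 0.84 (CcGH3.1c) in this comparison. The median of the 7 members was 0.42 against 0.07 over all genes.

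The call of CcGH3.6b at 21 dai against 14 dbi stood near the threshold. It was made in 14 of 22 alternative analyses, over which the log2 fold change ran from 1.73 to 3.37 and the adjusted p from 0.00386 to 0.321. It was lost without the second library of 14 dbi (log2 fold change 1.85), the second of 1 dai (2.24), either library of 2 dai (2.42) or either library of 21 dai (1.73 and 2.89). It was also lost with only the 4 libraries of both time points (2.32) and with only the 8 libraries of a low share of low mapping quality (2.68). Those 8 hold 1 library each of 14 dbi and 21 dai, so the loss cannot be told apart from that of replication. With low mapping quality as a term beside time point the call was kept (2.46, SE 0.62, adjusted p = 0.0305 in edgeR). The first 21 dai library was the shallowest of all and had the highest share of low mapping quality. The change over the 6 time points passed in 19 of 21 alternatives. It was lost without that library and on the 8 libraries, where 14 dbi, 0 dbi, 2 dai and 21 dai kept 1 library each. It was not lost with the term for low mapping quality (adjusted p = 0.024 in edgeR). In the second libraries alone, CcGH3.6b had 41.7 CPM at 21 dai and 14.2 or less elsewhere.

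CcGH3.1c was lowest at 2 dai and had its highest mean at 21 dai. It had 24.1 and 8.33 CPM at 14 dbi, 3.55 and 8 at 9 dbi, 3.49 and 14.9 at 0 dbi, 8.49 and 6.20 at 1 dai, 2.76 and 3.12 at 2 dai, then 32.5 and 27.2 at 21 dai. The 2 dai libraries were the lowest of the 12, and the 21 dai libraries were the highest in CPM. The share of all genes with their 2 dai libraries lowest was not computed. On TMM-normalized counts the 21 dai libraries (828 and 599) were not both above the first library of 14 dbi (615). On TMM-normalized counts only CcGH3.6b among the members had both 21 dai libraries above all others, as did 13.3% of genes. In CPM it was CcGH3.6b and CcGH3.1c, against 12.2% of genes.

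From 2 dai to 21 dai the fitted difference of CcGH3.1c was 3.51 on the log2 scale (SE 0.86, 95% interval 1.61 to 5.42) and that of CcGH3.6b was 2.88 (SE 0.69, 1.35 to 4.42). These were 0 of 7 calls in edgeR, with adjusted p = 0.0784 and adjusted p = 0.0756, while 1.33% of all genes were called. These were the 2 members with an unadjusted p under 0.05, as had 15.6% of all genes in edgeR. Both were called by DESeq2 (adjusted p = 0.000512 and adjusted p = 0.00103). No share of all genes called by DESeq2 is available, here or below, to set beside its calls. Over the 6 time points CcGH3.1c had adjusted p = 0.0621 in edgeR and passed in 6 of 21 alternatives, with the adjusted p from 0.00171 to 0.553. From 14 dbi to 2 dai its difference was -2.68 (SE 0.83, adjusted p = 0.0993 in edgeR). That made 0 of 7 members called at 2 dai against 14 dbi in edgeR, with 1 at an unadjusted p under 0.05. The shares over all genes in edgeR were 4.94% and 18.7%. DESeq2 called 1 member in this comparison (CcGH3.1c).

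CcGH3.6a, the other DFL1 homologue, was close to absent from the counts. It had 19 reads in the first library of 2 dai (0.821 CPM), 1 read in each of the second library of 14 dbi and the first of 0 dbi, and 0 in the other 9 libraries. The 2 homologues of DFL1 thus differed by 4416 reads against 21, in coding sequences with no identical run longer than 13 bases over the stretch compared. The second library of 2 dai, the deepest of all, had 0 reads of CcGH3.6a, which allows up to 0.0821 CPM there.

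CcGH3.1b was close to 0 at some time points and well counted at others. It had 82 and 15 reads at 14 dbi, 68 and 398 at 9 dbi, 4 and 473 at 0 dbi, 1 and 0 at 1 dai, 74 and 317 at 2 dai, then 0 and 12 at 21 dai. Both 1 dai libraries, both 21 dai libraries and the first of 0 dbi had 12 reads or fewer, and both 2 dai libraries lay above them. The 391 reads at 2 dai against 1 at 1 dai made a ratio of 254 per effective library size (exact 95% interval 45.4 to 1.01e+04), and of 128 (22.3 to 5.14e+03) without the deeper library of 2 dai. This interval covers the counting of reads in these libraries and not the spread between them. The edgeR test, which includes that spread, did not call the gene at 2 dai against 1 dai (adjusted p = 0.502), at 1 dai against 0 dbi (adjusted p = 0.0785) or at 1 dai against 14 dbi (adjusted p = 0.106).

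DESeq2 called CcGH3.1b in all 3 of these comparisons, with adjusted p = 0.0411 at 2 dai against 1 dai, adjusted p = 0.00144 at 1 dai against 0 dbi and adjusted p = 0.00986 at 1 dai against 14 dbi. It also called its change over the 6 time points (adjusted p = 0.00598, against 0.123 in edgeR). At 1 dai against 0 dbi, edgeR called 0 of 7 members, with 2 at an unadjusted p under 0.05. The shares over all genes in edgeR were 7.82% and 25.4%. DESeq2 called CcGH3.1b and CcGH3.6b in this step, with no share over all genes to set beside them. The difference of CcGH3.6b in that step was -1.93 (SE 0.67, 95% interval -3.43 to -0.43, adjusted p = 0.107 in edgeR). At 1 dai against 14 dbi, edgeR called 0 of 7 members, with 2 at an unadjusted p under 0.05, and the shares over all genes were 10.7% and 28.4%. At 2 dai against 1 dai it called 0 of 7, with 1 at an unadjusted p under 0.05, and the shares over all genes were 0% and 8.48%. The plot of fold changes shows how wide the intervals of the CcGH3.1a and CcGH3.1b differences were beside those of CcGH3.6b and CcGH3.1c.

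**Figure D2:**
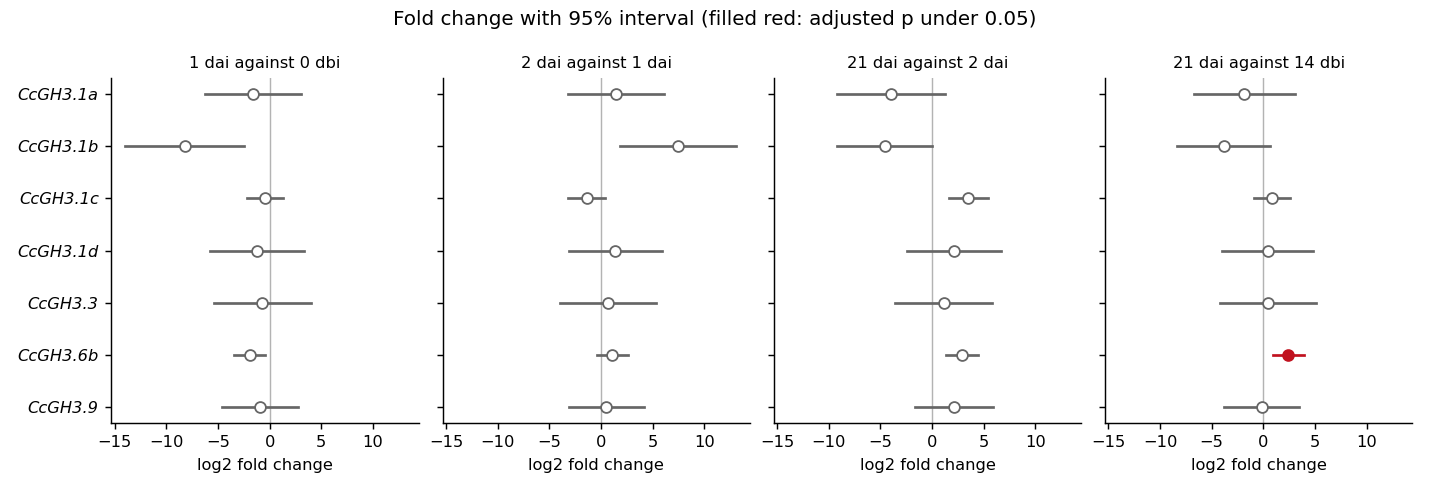
Fitted log2 fold changes (x axis) of the 7 members tested in 4 comparisons, with edgeR's 95% intervals as lines; the filled red point has an adjusted p under 0.05. CcGH3.6b at 21 dai against 14 dbi is the one filled point, and the intervals of CcGH3.1a, CcGH3.1d, CcGH3.3 and CcGH3.9 cross 0 in every panel.

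CcGH3.1a had 24 and 7 reads at 14 dbi, 22 and 15 at 9 dbi, 1 and 246 at 0 dbi, 56 and 0 at 1 dai, 83 and 219 at 2 dai, then 1 and 13 at 21 dai. It was high in both libraries of 2 dai and low in both of 21 dai, and at 0 dbi and 1 dai one library of the pair had 1 read or none. Within the pair, CcGH3.1a took from 3.63% of the reads (15 of 413 in the second library of 9 dbi, exact 95% interval 2.05 to 5.92) to 98.2% (56 of 57 in the first of 1 dai, 90.6 to 100), leaving out a library with a single read of the pair. In the second library of 0 dbi its share was 34.2% of 719 reads, and at 2 dai it was 52.9% of 157 and 40.9% of 536 reads. The intervals of the 9 dbi libraries did not overlap those of the 2 dai libraries. Those of the 2 libraries of 9 dbi did not overlap each other either (24.4% of 90 reads in the first, 16 to 34.6). The share thus varied between libraries of a time point by more than counting error, and why it did was not tested. Added together as one feature, the pair was not called over the 6 time points (adjusted p = 0.479 in edgeR) or in any of the 10 comparisons.

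CcGH3.1d and CcGH3.3, the neighbours on chromosome 2, were the members whose libraries of a time point differed most. CcGH3.1d had 24.4 and 1.14 CPM at 14 dbi, 9.74 and 0 at 9 dbi, 6.38 and 0.362 at 0 dbi, 1.40 and 2.01 at 1 dai, 2.94 and 6.65 at 2 dai, then 30.5 and 4.24 at 21 dai. CcGH3.3 had 15.5 and 0.909 CPM at 14 dbi, 16.8 and 0.447 at 9 dbi, 9.38 and 0.615 at 0 dbi, 7.32 and 0 at 1 dai, 5.10 and 7.09 at 2 dai, then 17.8 and 4.76 at 21 dai. Both genes were high in the first and low in the second library of all 3 time points before induction, and the libraries were closest at 2 dai for CcGH3.3 and at 1 dai for CcGH3.1d. Only 2 of the first libraries before induction, those of 14 dbi and 0 dbi, had the higher share of low mapping quality, and that of 9 dbi did not.

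CcGH3.3 made up between 35% and 65% of the reads of this pair in 9 of 12 libraries. Among the 8 libraries with at least 100 reads of the pair, its share ran from 36.9% in the first of 21 dai (180 of 488 reads, exact 95% interval 32.6 to 41.3) to 83.9% in the first of 1 dai (125 of 149, 77.0 to 89.4). The second library of 1 dai had 48 reads of CcGH3.1d and 0 of CcGH3.3, a share with an exact 95% interval of 0 to 7.40%. The second library of 9 dbi had 10 reads of CcGH3.3 and 0 of CcGH3.1d. Neither gene nor their sum was called over the 6 time points (adjusted p = 0.681 for CcGH3.1d, 0.982 for CcGH3.3 and 0.819 for the sum in edgeR).

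**Figure D3:**
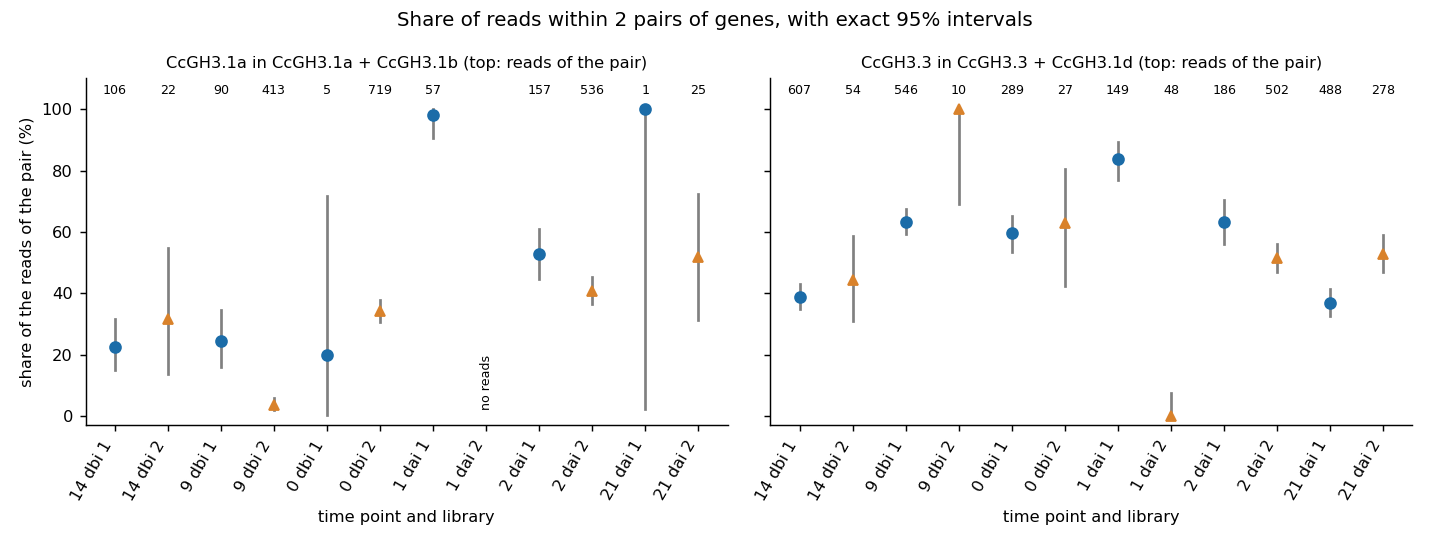
Share of the reads of a pair (y axis, percent) that fell to CcGH3.1a, in the left panel, and to CcGH3.3, in the right panel, in each library (x axis); lines are exact 95% intervals, circles and triangles are the first and second library, and the numbers along the top are the reads of the pair. The share of CcGH3.1a ran from 3.63% to 98.2% in libraries with more than 1 read of the pair, and that of CcGH3.3 lay between 35% and 65% in 9 of 12 libraries.

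CcGH3.9, the homologue of the Arabidopsis gene whose transcript auxin lowers, had 18.2 and 1.63 CPM at 14 dbi and 1.95 and 0 at 9 dbi. It had 3.49 and 1.95 CPM at 0 dbi, 0.878 and 2.35 at 1 dai, 2.98 and 1.81 at 2 dai, then 14.6 and 3.53 at 21 dai. It was high in the first libraries of 14 dbi and 21 dai, and in the second libraries all time points lay at 3.53 CPM or lower. Its difference between 9 dbi, after the first days on NAA and kinetin, and 14 dbi was -3.57 on the log2 scale (SE 1.80, 95% interval -7.57 to 0.42, adjusted p = 0.374 in edgeR). Over 21 alternatives this difference ran from -10.97 to -0.78, the latter without the first library of 14 dbi. With the term for low mapping quality it was -1.93 (SE 1.77).

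The auxin NAA was supplied together with kinetin at 9 dbi and 0 dbi but not at 14 dbi. Comparisons of 9 dbi and 0 dbi with 14 dbi therefore address whether these genes stood higher or lower while both were present, and cannot tell them apart. In edgeR none of the 7 members was called at 9 dbi against 14 dbi, in either direction, with 0 at an unadjusted p under 0.05 and 0 called by DESeq2, where 0.535% of all genes were called and 16% had an unadjusted p under 0.05. At 0 dbi against 14 dbi the count was likewise 0 of 7 in edgeR, 0 at an unadjusted p under 0.05 and 0 in DESeq2, where the shares over all genes in edgeR were 0% and 3.82%. From 9 dbi to 0 dbi it was 0 of 7, 0 and 0, where those shares were 0.13% and 13.7%. The fitted difference of CcGH3.6b was 0.04 at 9 dbi (95% interval -1.40 to 1.49) and 0.35 at 0 dbi (-1.09 to 1.79). For CcGH3.3 it was -0.16 (-4.80 to 4.49) and -0.65 (-5.32 to 4.03), and with the term for low mapping quality the former was 2.13 (SE 2.44). The intervals of the more variable members thus include changes of several log2 units, and the missing calls do not show that the genes stayed level.

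Across induction as a whole, with both libraries of a time point summed and 3 time points set against 3, edgeR called 0 of 7 members, 0 at an unadjusted p under 0.05, DESeq2 called 0, and of the 19990 genes tested 11% were called and 28.9% had an unadjusted p under 0.05. The fitted differences of induction minus pretreatment ran from -1.93 (CcGH3.1b, SE 1.57) to 0.76 (CcGH3.6b, SE 0.87), and the lowest adjusted p was 0.465. The median of the members was -0.17 and that of all genes was 0.08. The CcGH3.6b levels at 1 dai lay below all pretreatment levels of that gene, by a narrow margin, and those at 21 dai lay above them. How many of all genes did so was not computed.

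The other 10 CcGH3 genes of the study's table (CcGH3.5, whose listed homologue conjugates jasmonic acid in Arabidopsis, and 9 CcGH3.17 copies) were counted in the same tests. Of these 10, 2 were called over the 6 time points, where 21.9% of all genes were. At 1 dai against 14 dbi 2 were called (1 higher and 1 lower, with 10.7% of all genes), and at 21 dai against 14 dbi 3 (1 higher and 2 lower, with 13.7%). At 1 dai against 0 dbi 2 were called (both lower, with 7.82%), and between the stages 3 (1 higher and 2 lower, with 11%). The other 6 comparisons gave no edgeR call among them, with 0 to 2 at an unadjusted p under 0.05. Whether the 8 and the 10 genes differ in how often they were called was not tested.

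The difference between the 2 libraries of a time point set the limit for most members. As the mean absolute difference in log2(normalized count + 1) over the 6 pairs, it was 0.83 for CcGH3.6b and 0.99 for CcGH3.1c, and the median over all genes tested was 0.70. It was 2.41 for CcGH3.9, 2.94 for CcGH3.1b, 2.99 for CcGH3.1a, 3.52 for CcGH3.1d and 3.84 for CcGH3.3. Among genes within 1 log2 unit of the same mean level, 99.5% differed less between libraries than CcGH3.3 and 98.9% less than CcGH3.1d. For CcGH3.1a, CcGH3.1b and CcGH3.9 these shares were 94.1%, 93.8% and 89.2%. For CcGH3.6b and CcGH3.1c they were 66.5% and 66.1%. The means of the time points spanned 4.11 for CcGH3.3, little more than its difference between libraries, and 4.05 for CcGH3.6b, several times its difference.

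The summed level of the 8 genes was computed per kilobase of coding sequence and per 1e+06 reads of effective library size, so that long genes do not weigh more by length alone. It takes CcGH3.1d and CcGH3.3 as separate genes, and would count their transcript in both if they were parts of a single gene. They added 33.2 and 24.3 in the first library of 14 dbi, and 41.4 and 27.8 in the first of 21 dai. The sum was 99.3 and 12.2 at 14 dbi, 47.0 and 21.4 at 9 dbi, 37.8 and 36.0 at 0 dbi, 22.0 and 8.60 at 1 dai, 22.2 and 31.0 at 2 dai, then 148 and 51.4 at 21 dai. The means were 55.8 ± 61.6, 34.2 ± 18.1, 36.9 ± 1.26, 15.3 ± 9.48, 26.6 ± 6.23 and 99.8 ± 68.5 in the same order. The first libraries were highest at 21 dai and second highest at 14 dbi, whereas among the second libraries 14 dbi was second lowest. In both series 1 dai was the lowest, by a narrow margin in the first libraries (22.0 against 22.2 at 2 dai). Without CcGH3.6b the sum was 101 and 30.1 at 21 dai and 89.8 and 8.89 at 14 dbi.

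**Figure D4:**
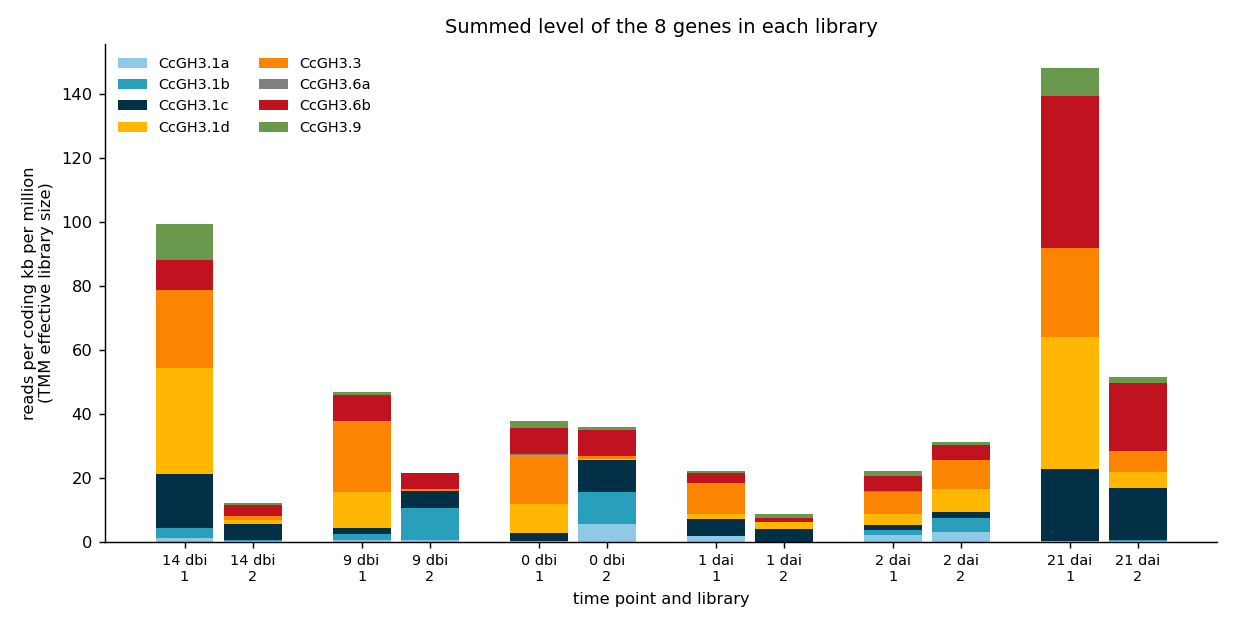
Summed level of the 8 genes (y axis, reads per coding kilobase per 1e+06 reads of effective library size) in each library (x axis), stacked by gene. The 21 dai libraries reach 148 and 51.4, and the gene that takes the largest block changes between the libraries of a time point except at 2 dai and 21 dai.

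The gene that led the sum was the same in both libraries at only 2 of the 6 time points. At 21 dai CcGH3.6b led with 32.0% and 41.4% of the sum. At 2 dai CcGH3.3 led with 30.6% and 28.8%. At 14 dbi CcGH3.1d led in the first library with 33.5% and CcGH3.1c in the second with 41.1%. At 9 dbi and 0 dbi CcGH3.3 led in the first library with 47.1% and 40.7%, and CcGH3.1b in the second with 48.0% and 28.1%. At 1 dai CcGH3.3 led in the first with 44.6% and CcGH3.1c in the second with 44.3%.

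At 0 dbi and 1 dai the share of CcGH3.6b differed little between libraries. It was 22.0% and 22.3% at 0 dbi and 14.3% and 13.2% at 1 dai, while the share of CcGH3.3 went from 40.7% to 2.54% between the 0 dbi libraries and from 44.6% to 0% between those of 1 dai. The lead also depended on scaling by length, since CcGH3.3 and CcGH3.1d are short gene models. Without it, CcGH3.6b led at 2 dai in place of CcGH3.3, with 30.3% and 22.4%, CcGH3.1c led in both libraries of 1 dai, with 30.7% and 48.7%, and CcGH3.6b led at 21 dai with 45.7% and 50.6%. The lead of CcGH3.6b at 21 dai was thus found in both libraries and on both scales, with CcGH3.1d and CcGH3.3 counted separately.

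The 5 genes whose log2 levels followed CcGH3.6b most closely over the 12 libraries were Cc02_g00420 (Pearson's r 0.938), Cc07_g12620 (0.937), Cc04_g11550 (0.927), Cc05_g12090 (0.924) and Cc04_g01290 (0.922). Without the first 21 dai library and the second 1 dai library, the farthest from the median of CcGH3.6b, these were 0.867, 0.858, 0.810, 0.919 and 0.899. Spearman's rho over the 12 libraries was 0.93, 0.790, 0.944, 0.909 and 0.846. The libraries share depth and normalization across genes and are labelled as pairs from one sample, and the 5 were picked from all genes for this likeness, so the values are a description. None of them is another CcGH3 gene.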

How the data were processed

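Transcripts were counted from single-end RNA-seq, with 2 libraries at each of 6 time points, grouped as labelled. The authors deposited 1 table per library of raw read counts for 25574 genes with 5 lines of unassigned reads, which were left out of library sizes (29.2% to 59.9% of reads fell in genes). The submitters' notes name FastQC 0.11.5, cutadapt 1.14 and HTSeq 0.10.0. None of the sources used here gives the build, the aligner or whether counting used strand. Counts of overlapping or near-identical genes are therefore uncertain.

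The counts were normalized by TMM and tested in edgeR 4.0.16 (R 4.3.3) with the quasi-likelihood test on all 12 libraries, time point as the only term and genes filtered with filterByExpr by time point. P-values were adjusted by Benjamini-Hochberg over all genes tested, with a threshold of 0.05. Normalized counts were scaled to the mean effective library size, and log2 levels used a pseudocount of 1. For the stage comparison the 2 libraries of a time point were summed. The procedure was tested on simulated data. Coding lengths for the summed level were taken as those of the proteins in the study's gene table; HTSeq also counts reads in UTRs, which these lengths leave out. Sequences were the first 399 bases of each gene in the study's sequence table. Coordinates come from the RefSeq gene table of AUK_PRJEB4211_v1, to which all 25574 identifiers matched.

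All 8 genes are named, and the other 10 CcGH3 genes were counted as a list. The members and lists were chosen with earlier results of these data known. The labels do not pair same-numbered libraries. Of 15 correlations of their deviations between time points 5 were over 0.1 (-0.05 to 0.38), so they may share some structure. A replicate block was run only as an alternative. With it the SE of CcGH3.6b at 21 dai against 14 dbi was 0.51, against 0.68 without it. Alternatives were DESeq2 1.42.0, other normalizations and filters, each library left out, a term for a high share of low mapping quality, and, chosen after seeing the data, only the 8 libraries of a low share of low mapping quality (cut 15%).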

Additional observations from a re-analysis of the deposited data

How the results depend on the processing

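Of the counts of members called, those at 9 dbi against 14 dbi, 0 dbi against 14 dbi, 0 dbi against 9 dbi and between stages were 0 in every alternative run (22, 22, 22 and 26). The called difference of CcGH3.6b at 21 dai against 14 dbi was positive in all 22 alternatives, whereas differences that were not called changed sign in places (CcGH3.1d at 9 dbi against 14 dbi ran from -11.34 to 2.06, and CcGH3.6b between stages from -0.98 to 1.39). A low mapping quality term, fitted beside time point, changed no count of members called over the 6 time points or between time points. It was not fitted in the comparison of stages. The count over the 6 time points was 1, and became 3 with DESeq2, 2 when every library had to hold 10 counts or more, and 0 on the 8 libraries of a low share of low mapping quality, with 0 to 2 when a library was left out. At 21 dai against 14 dbi it was 1, and became 0 with only the 4 libraries compared and 0 on the 8 libraries, with 0 to 1 when a library was left out. With DESeq2 the count went from 0 to 1 at 1 dai against 14 dbi, 1 at 2 dai against 14 dbi, 2 at 1 dai against 0 dbi, 1 at 2 dai against 1 dai and 2 at 21 dai against 2 dai. The share of all genes called by DESeq2 is not available for these comparisons. At 21 dai against 2 dai it was 4 with only the 4 libraries compared (CcGH3.1a and CcGH3.1b lower, CcGH3.1c and CcGH3.6b higher) and 0 to 1 when a library was left out. The replicate block gave 1 call at 1 dai against 0 dbi and 1 at 21 dai against 2 dai, both CcGH3.6b (adjusted p = 0.0402 and 0.0444 in edgeR). The cause of these shifts was not tested, beyond the smaller number of libraries in the fits that leave some out. Without scaling by length the share of CcGH3.6b in the sum was 28.1% at 9 dbi, 30.6% at 0 dbi, 19.8% at 1 dai, 26.4% at 2 dai and 48.2% at 21 dai, and with gene span as the length it was 24.6% at 0 dbi and 15.9% at 1 dai. The search for auxin response elements in promoters was not run because no promoter sequences were at hand.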
